A study of Mus musculus with 2 samples.

Results

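Hmgcs1, Sqle, Insig1, Srebf2, Fdft1, Lss and Cyp51 are 7 genes of the machinery that makes cholesterol and adjusts its synthesis to the sterol content of the cell. They were chosen by their gene symbols, with earlier results of these data known, and all 7 were found among 55536 annotated mouse genes. The data were 2 libraries of rRNA-depleted total RNA from the nucleoplasmic fraction of primary bone marrow-derived macrophages, strain C57BL/6J, stimulated with lipid A at 100 ng/ml over 25 min. Lipid A, the membrane anchor of lipopolysaccharide, is a ligand of the TLR4 receptor complex. Both libraries form 1 group, were made from 500 ng (replicate 1) and 1 ug (replicate 2) of RNA, and carry the same donor entry, so each SD measures the spread between these libraries and may be technical. Sex and age of the mice were not recorded in the labels. The sample description calls the fraction nucleoplasmic, the term used here, while another label calls it nuclear. No untreated cells and no other fraction were analysed here, so every value is a level in stimulated cells, and no test between conditions was possible.

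Cholesterol is built from acetyl-CoA through mevalonate, squalene and lanosterol. When membranes of the endoplasmic reticulum are rich in sterol, INSIG proteins hold the SCAP-SREBP complex there. When sterol falls, SCAP carries SREBP2 to the Golgi, proteases release its N-terminal part, and this enters the nucleus and binds sterol regulatory elements in promoters of synthesis genes, of Insig1 and of Srebf2 itself. In macrophages the same sterol balance is tied to efflux through LXR target genes and to inflammatory signalling.

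Srebf2 also carries a microRNA. Mir33 (chromosome 15, 82198122 to 82198190, mm10, plus strand) lies in intron 16 of the 18 introns of the main Srebf2 transcript, an intron of 1848 bases. miR-33 is known to repress the cholesterol exporter Abca1. Its mature strands from RefSeq (GRCm38.p6) are printed because they are the second product of the Srebf2 locus, with the seed, bases 2 to 8, in capitals.
mmu-miR-33-5p: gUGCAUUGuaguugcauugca
mmu-miR-33-3p: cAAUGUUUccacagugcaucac
The Mir33 gene itself had 0 counts in both libraries in the gene table, where its effective length is given as 0. In the table made without alignment it had 5 and 4 estimated counts, so the level of the microRNA was not measured by these libraries.

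Promoter windows from RefSeq (GRCm38.p6, 250 bases before to 50 bases after the start) were held for 5 of the 7 genes, and 3 letter motifs were searched on both strands. TCACNCC is the core of sterol regulatory elements, CCAAT is bound by NF-Y, and GGGCGG is bound by Sp1, the usual partners of SREBP at these promoters. TCACNCC occurred in 2 of the 5 windows, those of Hmgcs1 and Srebf2, against 15.6% of all 32851 windows in the table and 16.3% of the 10051 windows of protein-coding genes detected here. CCAAT occurred in 5 of 5 windows, against 37.4% of all windows. GGGCGG also occurred in 5 of 5, against 35.7% of all windows and 62.9% of those of detected genes. The windows of Hmgcs1 and Srebf2 held all 3 motifs, as did 2.12% of all windows and 3.81% of those of detected genes. No matches overlapped between motifs in the windows printed. These 2 windows and that of Insig1, which held the other 2 motifs, are printed with the matches in capitals, on the plus strand at chr13:119690101-119690400, chr15:82147019-82147318 and chr5:28071162-28071461.
Hmgcs1: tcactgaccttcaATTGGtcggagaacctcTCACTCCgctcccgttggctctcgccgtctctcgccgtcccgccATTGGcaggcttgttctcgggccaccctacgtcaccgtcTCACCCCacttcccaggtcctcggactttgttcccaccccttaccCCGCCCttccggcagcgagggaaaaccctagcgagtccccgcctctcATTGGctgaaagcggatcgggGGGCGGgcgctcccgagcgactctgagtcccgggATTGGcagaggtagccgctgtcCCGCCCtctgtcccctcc
Srebf2: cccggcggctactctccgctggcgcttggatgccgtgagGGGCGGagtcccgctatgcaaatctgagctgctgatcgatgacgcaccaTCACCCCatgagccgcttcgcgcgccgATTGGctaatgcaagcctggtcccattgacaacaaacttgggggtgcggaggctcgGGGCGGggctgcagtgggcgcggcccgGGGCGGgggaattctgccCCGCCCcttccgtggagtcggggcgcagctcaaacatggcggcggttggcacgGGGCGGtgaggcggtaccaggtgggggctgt
Insig1: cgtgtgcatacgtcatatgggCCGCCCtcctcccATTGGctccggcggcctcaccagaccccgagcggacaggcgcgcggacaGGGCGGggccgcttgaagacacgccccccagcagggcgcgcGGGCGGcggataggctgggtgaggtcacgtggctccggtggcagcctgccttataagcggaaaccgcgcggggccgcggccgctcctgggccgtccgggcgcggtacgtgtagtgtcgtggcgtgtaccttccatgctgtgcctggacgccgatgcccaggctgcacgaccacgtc
Relative to the RefSeq start of each window, the TCACNCC matches began at positions -220 and -137 in Hmgcs1 and at -162 in Srebf2. For both genes that start differs from the start of the gene coordinates given below. A match is a description of the letters and no binding was measured.

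Estimated counts on annotated genes in the gene table totalled 13506939 in replicate 1 and 17932332 in replicate 2, and levels are given as the deposited TPM, that is counts per base of effective length, scaled to the same total in each library. The 8 macrophage markers summed to 3826 and 3154 TPM, led by the lysozyme gene Lyz2. The lists of neutrophil, B cell, T cell, fibroblast, erythroid and mast cell markers, 20 genes together, each summed to between 0.03 and 3.32 TPM, with Ly6g, Cd3e and Mcpt4 at 0 counts in both libraries. Kit had the most counts of the 20, with 92 and 66, and S100a9 reached 1.72 and 1.58 TPM. In the table made without alignment Cd3d had 8.72 and 1.10 TPM, against 0.10 and 0.03 in the gene table. By the summed levels in the gene table, the cell label was met by the markers.

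All 7 genes were detected, which here means a TPM of at least 1 in both libraries, as were 44.5% of protein-coding genes and 22.5% of all genes. Their levels spanned a wide range: the highest, Insig1, exceeded the lowest, Lss, by 14.8-fold in replicate 1 and 28.5-fold in replicate 2. In the table made without alignment the same ratio was 7.17 and 14.4, and Fdft1, not Lss, was the lowest in replicate 1. The sterol sensor Insig1 and the transcription factor Srebf2 came first, and Hmgcs1 was the highest of the 5 enzymes. The median over the 7 genes of log2(TPM + 1) was 3.50 ± 0.33 (SD, n = 2), and that over the 9806 detected protein-coding genes was 3.40 ± 0.33.

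Srebf2 (ENSMUSG00000022463.8, chromosome 15, 82147181 to 82205379, mm10) encodes SREBP2, the main activator of cholesterol synthesis genes. It had 39.15 TPM in replicate 1 and 26.84 in replicate 2, from 2073 and 2207 counts. Both values placed it above 92.6% and 92.2% of protein-coding genes. Insig1 (ENSMUSG00000045294.11, chromosome 5, 28071363 to 28078662), which encodes the protein that retains SCAP and SREBP in the endoplasmic reticulum, had 88.44 and 71.84 TPM from 2063 and 3029 counts. It stood above 97.5% and 97.7% of protein-coding genes, and its level was 2.26 and 2.68 times that of Srebf2. The ranges of Insig1 and Srebf2 did not overlap.

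Hmgcs1 (ENSMUSG00000093930.2, chromosome 13, 119690379 to 119708260), the cytosolic synthase that makes HMG-CoA, had 36.32 and 20.24 TPM, from 1398 and 1231 counts. Its range overlapped that of Srebf2. Fdft1 (ENSMUSG00000021273.10, chromosome 14, 63145150 to 63179578), squalene synthase, which commits farnesyl units to sterols, had 8.95 and 6.78 TPM. Sqle (ENSMUSG00000022351.14, chromosome 15, 59315077 to 59331192), the squalene epoxidase, had 12.37 and 8.63 TPM. The values of these consecutive enzymes overlapped between Fdft1 in replicate 1 and Sqle in replicate 2, although within each library Sqle was the higher.

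Lss (ENSMUSG00000033105.12, chromosome 10, 76531588 to 76557138), which cyclises the epoxide to lanosterol, was the lowest of the 7 with 5.98 and 2.52 TPM from 331 and 261 counts. It stood above 68.4% and 63.0% of all protein-coding genes, of which 44.5% were detected. Its log2(TPM + 1) of 2.80 and 1.82 was below the medians of detected protein-coding genes, 3.63 and 3.16. Cyp51 (ENSMUSG00000001467.5, chromosome 5, 4081145 to 4104746), the cytochrome P450 that demethylates lanosterol, had 12.24 and 6.27 TPM. In order of mean TPM the genes ran Insig1 (80.1 ± 11.7), Srebf2 (33.0 ± 8.70), Hmgcs1 (28.3 ± 11.4), Sqle (10.5 ± 2.64), Cyp51 (9.26 ± 4.22), Fdft1 (7.87 ± 1.53) and Lss (4.25 ± 2.45), each ± SD with n = 2. Of the 6 neighbouring pairs, 3 had ranges that did not overlap: Insig1 and Srebf2, Hmgcs1 and Sqle, and Fdft1 and Lss. Srebf2 and Hmgcs1, Sqle and Cyp51, and Cyp51 and Fdft1 had overlapping ranges. Within each library, however, Srebf2 stood above Hmgcs1, by 1.08-fold and 1.33-fold. Sqle likewise stood above Cyp51, by 1.01-fold and 1.38-fold. The order of Cyp51 and Fdft1 changed between the libraries. In the table made without alignment the order in replicate 1 differed at 2 other places: Hmgcs1 (25.4 TPM) stood above Srebf2 (20.7), and Lss (6.38) above Fdft1 (5.64). The ranges of all 6 neighbouring pairs overlapped in that table as deposited. After it was rescaled without mitochondrial genes and genes under 200 bases, Insig1 and Srebf2, and Hmgcs1 and Sqle, did not overlap, and Fdft1 and Lss still did.

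**Figure D1:**
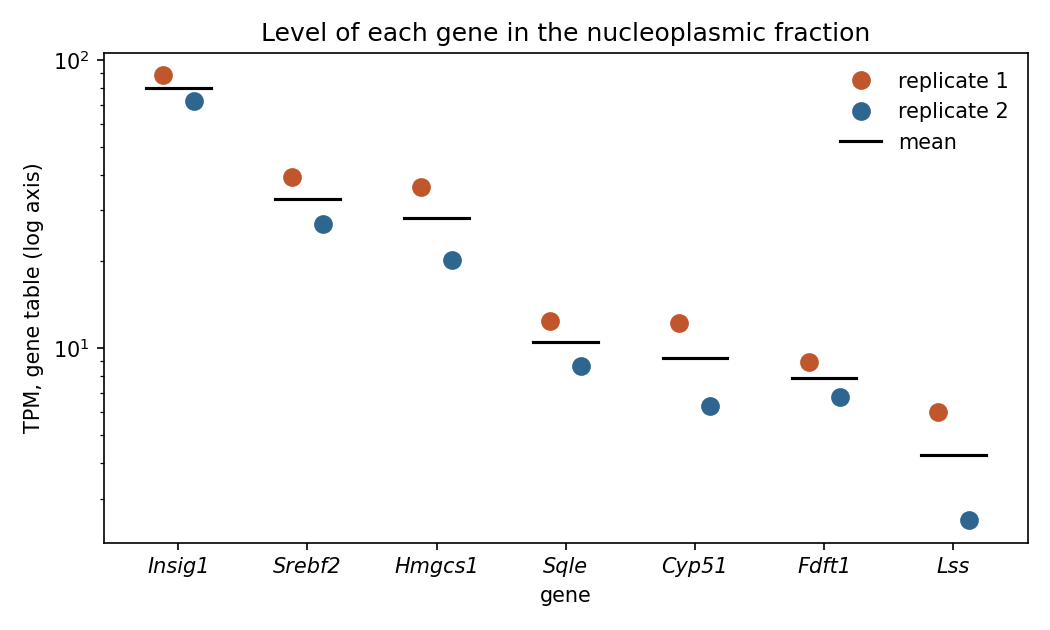
TPM of the 7 genes in the gene table on a log axis, with a point for each of the 2 libraries and a line at their mean. Insig1 is at 88.44 and 71.84 TPM, Lss at 5.98 and 2.52, and replicate 1 is the higher library for each of the 7 genes.

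The quantifier's own bounds on TPM, which the headers call a confidence interval without giving its level, were narrow for 6 of the genes, with an upper bound 1.10 to 1.32 times the lower. For Lss the upper bound was 2.04 and 1.93 times the lower. Lss has 8 annotated transcripts with lengths of 314 to 6992 bases. For Insig1 the deposited TPM lay above the deposited upper bounds of 86.1 and 71.5 TPM. In replicate 1 Hmgcs1 lay above its upper bound of 36.17 TPM, and in replicate 2 Lss lay below its lower bound of 2.585 TPM. These bounds are therefore not used as errors here.

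The 5 enzymes were then placed among 20 enzymes on the way from acetyl-CoA to cholesterol. All 20 were detected, and their median log2(TPM + 1) was 2.70 ± 0.41, below the 3.40 ± 0.33 of detected protein-coding genes. Of these 20, Msmo1, the sterol C4-methyl oxidase, had the highest mean with 44.86 and 19.18 TPM, and its range overlapped that of Hmgcs1. In replicate 2 Hmgcs1, with 20.24 TPM, was the higher of these genes. By mean Sqle came next, followed by the isopentenyl diphosphate isomerase gene Idi1 with 12.65 and 6.05 TPM. In replicate 1 Idi1 was above Sqle, which had 12.37 TPM. The lowest were the thiolase gene Acat2, with 2.35 and 1.61 TPM, and the reductase gene Hsd17b7, with 1.60 and 1.04. Fdft1, Lss and Cyp51 were among the 17 enzymes with a mean below that of Sqle.

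**Figure D2:**
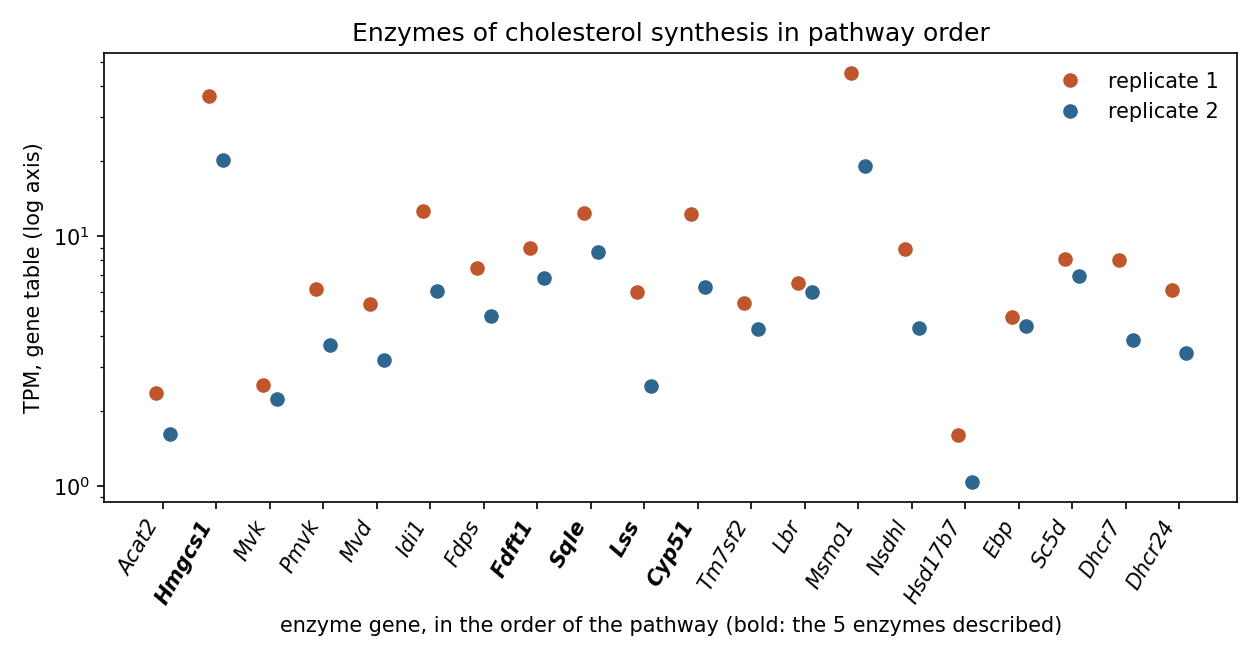
TPM of 20 enzymes of cholesterol synthesis in the gene table, on a log axis and in pathway order, with 1 point for each library. Msmo1 and Hmgcs1 stand above the rest shown, with means of 32.0 and 28.3 TPM, and Hsd17b7 is lowest at 1.60 and 1.04.

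All 11 genes of the list that escorts, retains and cleaves SREBP were detected, with a median log2(TPM + 1) of 4.10 ± 0.51. After Insig1 and Srebf2 came Mbtps1, the site-1 protease that makes the first cleavage, with 32.93 and 19.45 TPM, and Srebf1, which encodes SREBP1, with 27.25 and 18.80. Srebf2 was above Srebf1 in each library, but their ranges overlapped, and in the table made without alignment Srebf1 was the higher in replicate 1, with 25.9 TPM against 20.7 for Srebf2. Insig2, the relative of Insig1 that is not itself an SREBP target in most cells, was the lowest of the list with 6.17 and 3.59 TPM. Its values lay below those of Insig1 in both libraries without overlap. The ubiquitin ligase gene Rnf139 was next lowest with 6.77 and 4.35. This order did not hold in the table made without alignment. Insig2 had 5.49 and 1.42 TPM there, above Rnf139 (3.23 and 0.931) and Pgrmc1 (3.36 and 0.881) in both libraries. Srebf1, with 25.9 and 5.36 TPM, stood above Mbtps1, with 20.2 and 4.30.

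Among 3 other targets of SREBP2, 2 were detected, with a median log2(TPM + 1) over the 3 of 2.48 ± 0.20. The sterol transporter gene Stard4 had 10.84 and 8.01 TPM, and Tmem97 had 5.17 and 4.06. Npc1l1, the intestinal sterol importer, had 8 and 1 counts. The 5 genes of the nonsterol branch were all detected at a median of 3.04 ± 0.36, from Nus1, a subunit of the dolichol-making prenyltransferase, with 14.47 and 8 TPM to Pdss2, a subunit of the enzyme that makes the ubiquinone side chain, with 7.13 and 4.42. The partner subunit genes Dhdds and Pdss1 had means of 8.56 and 7.33 TPM, and the geranylgeranyl diphosphate synthase gene Ggps1 had 6.01.

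A mixed list of oxysterol, efflux, esterification and lysosomal sterol transport genes, called here the oxysterol and efflux list, had a higher median level. The oxysterol and efflux list had a median log2(TPM + 1) of 6.54 ± 0.39, with 10 of 11 genes detected, against 3.50 ± 0.33 for the 7 genes described here. The apolipoprotein gene Apoe had 732 and 980 TPM, the exporter gene Abca1 201 and 147, the esterifying enzyme gene Soat1 180 and 139, and the oxysterol-producing Cyp27a1 127 and 99.0. Nr1h3, which encodes the oxysterol receptor LXR alpha, had 9.77 and 10.24 TPM, so that it and Apoe were higher in replicate 2. Ch25h, the cholesterol hydroxylase known to be induced by TLR ligands, had 6 and 4 counts. The fatty acid synthesis list, which SREBP1 controls, had a median of 2.93 ± 0.26 with 9 of 12 genes detected, led by the desaturase gene Scd2 with 50.32 and 21.48 TPM, while Scd1 had 1.12 and 0.49. Acly, Acaca and Fads1 followed Scd2 with means of 21.6, 13.4 and 12.7 TPM, and Me1, the cytosolic malic enzyme, was lowest with 0.17. Differences between these lists and the 7 genes are descriptions of levels, and no test was made.

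The transcript table separates spliced coding transcripts from those annotated as keeping part of an intron. For each of the 7 genes the transcript with the highest mean TPM was a coding one and was the same in both libraries. Sqle and Lss nevertheless gave 52.8% ± 3.55 and 52.6% ± 1.09 of their counts (SD, n = 2) to transcripts not annotated as coding. These shares exceeded those of 83.4% and 83.2% of the 9198 protein-coding genes that have a transcript of this kind and reached 10 counts in each library. Srebf2 had 20.3% ± 5.44, Insig1 11.8% ± 1.2998, Hmgcs1 8.99% ± 1.45, Fdft1 2.12% ± 0.405 and Cyp51 1.65% ± 0.541. The median over the 7 genes was 11.8%, against 18.6% over those 9198 genes with quartiles at 5.15% and 41.3%. Summed over the 7 genes the share was 16.9% ± 0.683, against 20.6% ± 0.748 for all protein-coding genes.

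**Figure D3:**
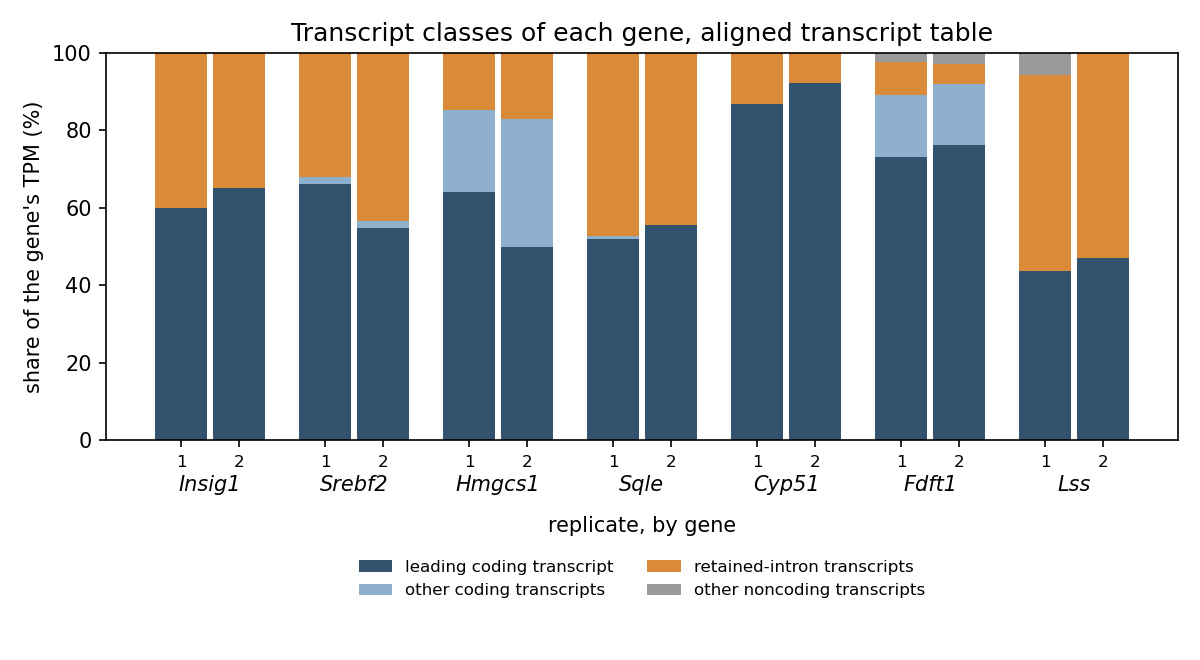
Share of each gene's TPM in its leading coding transcript, other coding transcripts, retained-intron transcripts and other noncoding transcripts, with 1 bar per library. The retained-intron part is largest for Lss, Sqle, Insig1 and Srebf2 and smallest for Fdft1 and Cyp51.

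In Sqle the coding transcript Sqle-201 held 51.94% and 55.61% of the gene's TPM, and the retained-intron transcript Sqle-204 held 36.54% and 30.33%. Sqle-204 runs from the upstream exon into intron 9 of 10 and covers 2292 of its 3073 bases, and it had 263 and 257 counts, against 223 and 284 for the coding form. Which of them had more counts thus differed between the libraries. Sqle-203, which reaches into introns 7 and 9, held 10.60% and 14.06% of TPM. In Insig1 the only alternative, Insig1-202, held 40.03% and 34.86% of TPM. It covers 396 of the 413 bases of intron 3 and is 757 bases long against 2697 for Insig1-201, so its 262 and 330 counts weigh more in TPM than in counts.

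Srebf2 has 3 retained-intron transcripts, and the rest of its signal was mostly the full coding form of 19 exons, Srebf2-201, with 66.13% and 54.83% of TPM. Srebf2-205 held 21.32% and 21.15% and runs 995 bases into intron 4, which has 2197 bases. Srebf2-207, which keeps all 947 bases of intron 2 and 726 bases of intron 4, held 10.70% and 19.12%. The share of Srebf2 counts in noncoding transcripts was 16.5% in replicate 1 (95% Wilson interval 14.96% to 18.2%) and 24.2% in replicate 2 (22.5% to 26.0%). These intervals do not overlap, but they cover counting error only, treat estimated counts as counts, and compare single libraries. Within intron 11 lies Gm49502, a to-be-experimentally-tested gene on the same strand, with 176 and 202 counts or 6.79 and 4.57 TPM. The retained models of Srebf2 lie in its 5' part, and none of them spans the intron that holds Mir33.

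**Figure D4:**
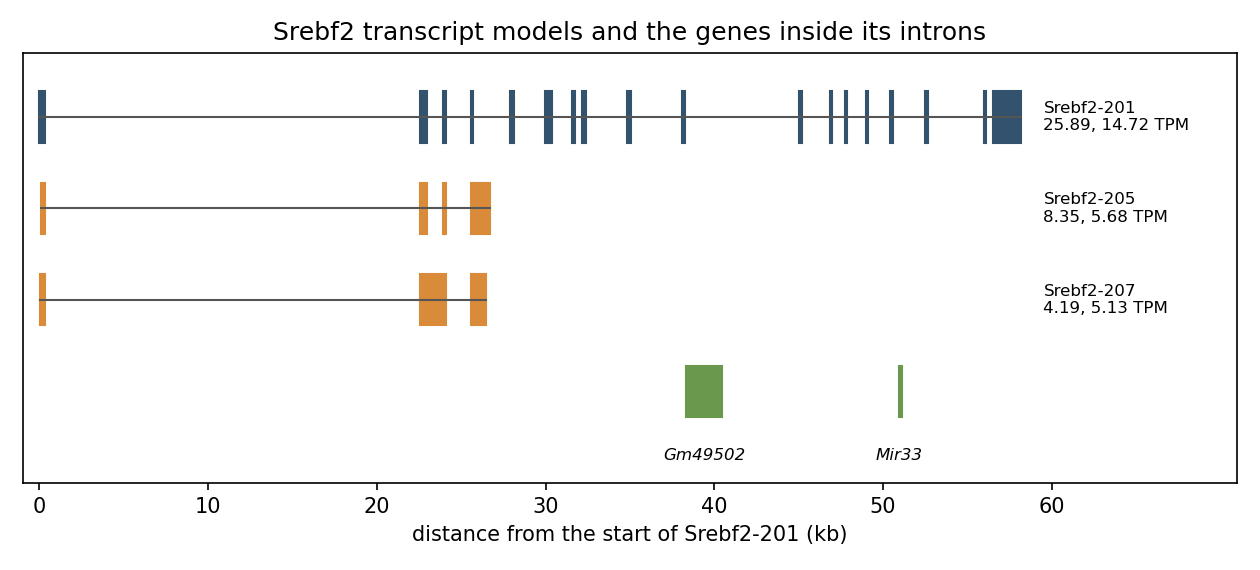
Exons (boxes) of the leading Srebf2 transcript and of its 2 main retained-intron transcripts, with TPM in replicates 1 and 2 beside each, and the genes Gm49502 and Mir33 within the introns. The axis is the distance in kb from the start of Srebf2-201, and both retained-intron models end in intron 4, far before Mir33.

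The sequences that tell the retained models from spliced RNA begin at the donor site of the intron. They are printed for the largest such model of the 4 genes with a donor-side model of at least 10% of TPM in both libraries (from the GENCODE M21 transcripts, mm10, plus strand), with 20 exon bases in lower case and 60 intron bases in capitals, at chr15:59326647-59326726 for Sqle-204, chr15:82172880-82172959 for Srebf2-205, chr13:119701221-119701300 for Hmgcs1-204 and chr10:76547521-76547600 for Lss-206.
Sqle-204 intron 9: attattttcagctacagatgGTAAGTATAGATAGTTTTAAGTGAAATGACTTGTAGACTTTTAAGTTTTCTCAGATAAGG
Srebf2-205 intron 4: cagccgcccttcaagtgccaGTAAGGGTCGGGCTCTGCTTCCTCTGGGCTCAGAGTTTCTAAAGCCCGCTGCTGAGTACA
Hmgcs1-204 intron 4: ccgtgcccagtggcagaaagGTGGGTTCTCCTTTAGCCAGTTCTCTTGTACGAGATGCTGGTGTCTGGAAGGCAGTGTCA
Lss-206 intron 17: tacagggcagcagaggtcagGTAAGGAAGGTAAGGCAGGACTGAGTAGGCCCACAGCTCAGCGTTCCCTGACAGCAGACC
Each intron begins with GT, and in the retained models these letters are read through as exon. Hmgcs1-204 covers 946 of the 1294 bases of intron 4 and held 14.64% and 16.97% of TPM. Stable retained-intron RNA and unspliced precursor RNA cannot be told apart in these tables.

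The coding transcripts of Hmgcs1 were divided between Hmgcs1-201, with 64.12% and 49.96% of TPM, and Hmgcs1-202, with 19.84% and 25.65%. The short model Hmgcs1-203 held 1.40% and 7.41%, from only 1 and 6 counts. In the table made without alignment Hmgcs1-203 held 30.5% and 20.1% of TPM, from 51.7 and 24.6 estimated counts. Hmgcs1-201 and Hmgcs1-202 both have a coding length of 1560 bases, and Hmgcs1-202 has an additional exon of 59 bases inside intron 1. Fdft1-201 held 73.09% and 76.36% and Fdft1-204 16.05% and 15.60%, both with a coding length of 1248 bases. The retained-intron model Fdft1-203 held 8.63% and 5.25%, from only 5.92 and 4.84 counts. Cyp51-201 held 86.76% and 92.09%, the most concentrated of the 7 genes. The retained-intron models Cyp51-204 and Cyp51-203 held 8.94% and 4.29% in replicate 1, from only 7.15 and 4.06 counts. In replicate 2 they held 3.26% and 4.65%, from 2.39 and 4 counts.

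Lss was the most divided gene. Lss-201, the full coding form with 22 exons, held 43.76% and 46.94% of TPM, followed by the retained-intron models Lss-206 with 19.04% and 27.52%, Lss-207 with 17.24% and 17.50% and Lss-204 with 8.03% in each library. The short models Lss-202 and Lss-203 held 5.74% and 6.18% in replicate 1, from 0.66 and 2.15 counts, and were at 0 counts in replicate 2. In the table made without alignment Lss-207 led, with 518 and 320 of 861 and 540 estimated counts, and the noncoding share of Lss was 85.4% and 86.6%. By TPM the leading transcript of Lss thus differed between the tables, while the other 6 genes kept theirs. By estimated counts in the table made without alignment, the retained-intron Sqle-204 led Sqle-201, with 520 and 363 against 346 and 295. Lss-207 lies at the 3' end of the gene, where the antisense gene 4930483K19Rik on the minus strand overlaps it and had 4 and 2 counts.

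Neighbouring genes on the other strand also overlap Hmgcs1, Fdft1 and Cyp51 and the labels and file headers do not say whether strand was used in counting. The cathepsin B gene Ctsb, with 2167 and 1536 TPM from 104492 and 138128 counts, shares 774 bases with the 3' end of Fdft1, whose counts were 313 and 411. Akap9, with 34.0 and 21.2 TPM, shares 166 bases with the 3' end of Cyp51. The antisense gene Gm48342 overlaps 6190 bases of Hmgcs1 and had 131 and 133 counts. In the gene table the counts of Sqle, Insig1, Srebf2 and Lss were whole numbers to within 0.005 in both libraries, whereas those of Hmgcs1 and Fdft1 were not in either library and that of Cyp51 was not in replicate 1. The part of overlapping genes in the levels of Fdft1, Cyp51 and Hmgcs1 was not tested.

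The last comparison sets the libraries against each other, as a description only, since each side is a single library. Each of the 7 genes had the higher TPM in replicate 1, and so did most genes: the median log2 ratio of TPM + 1, replicate 1 over replicate 2, was 0.42 over the 14584 genes that reached 10 counts in each library. After that median was subtracted, no member of the group differed by over 2-fold, against 1.71% of all genes (0.487% higher and 1.22% lower in replicate 1). The remaining log2 ratios were 0.56 for Lss, 0.44 for Cyp51 and 0.39 for Hmgcs1, which 3.87%, 7.56% and 9.91% of all genes exceeded. They were 0.10 for Srebf2, 0.05 for Sqle, -0.07 for Fdft1 and -0.13 for Insig1. Lss, Cyp51 and Hmgcs1 stayed higher in replicate 1 under every scaling computed, and the sign for Srebf2, Sqle, Fdft1 and Insig1 depended on the scaling. In the table made without alignment Hmgcs1 passed 2-fold with a log2 ratio of 1.06, where 3.01% of genes did so in that direction and 5.72% either way. In the other settings none of the 7 did, and the share of all genes that did was 3.9% without subtraction of the median, 4.7% with a pseudocount of 0.1 TPM, 1.27% with a minimum of 50 counts, 2.84% without a minimum, 2.12% with TMM factors, 2.21% with DESeq2 size factors and 2.4% in the rescaled alignment-free table.

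**Figure D5:**
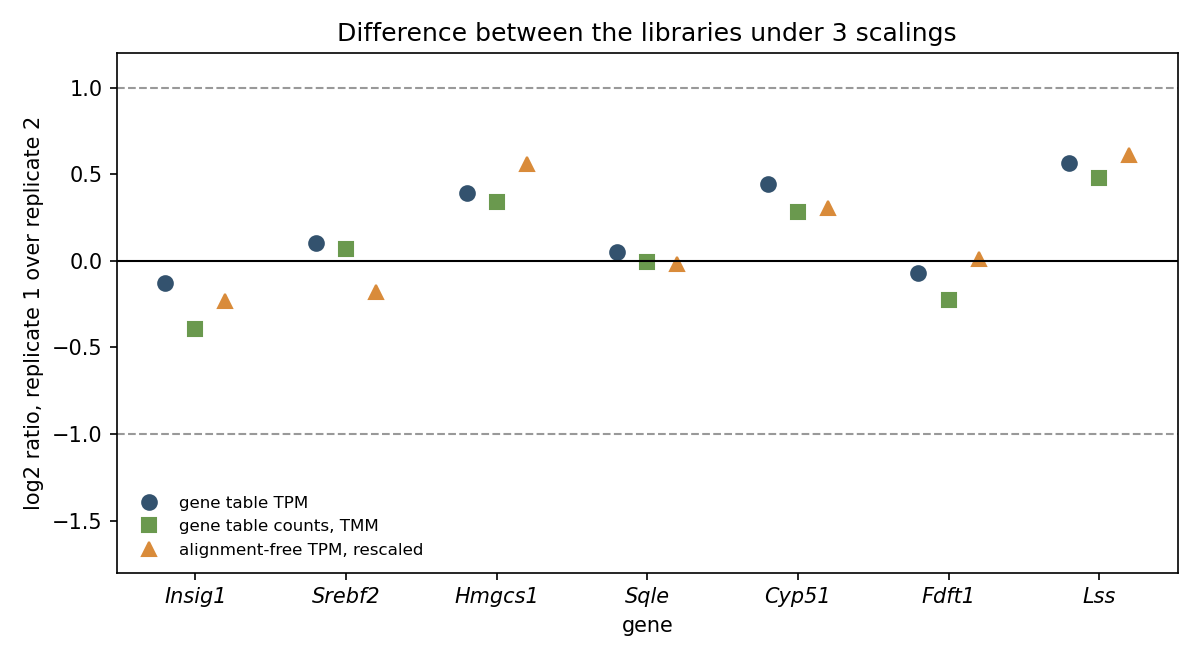
Log2 ratio of replicate 1 over replicate 2 for the 7 genes under 3 scalings, with dashed lines at 2-fold. The median of all genes was subtracted from both TPM ratios and not from the TMM ratio. Lss, Cyp51 and Hmgcs1 are above 0 under each of the 3, at 0.56, 0.44 and 0.39 in the gene table, and Insig1 is below 0 under these 3.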

How the data were processed

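Per the deposited readmes, the authors made expected counts and TPM per gene and per transcript from alignments to the transcriptome (mm10, GENCODE M21), and a second table of estimated counts and TPM directly from the reads, called here the table made without alignment or alignment-free table. Each transcript's percent of the TPM of its gene was also deposited. Names of the quantifiers, and whether strand was used, are not given in the sources. Replicates were not pooled. The members and lists were chosen with earlier results of these data known, and some genes of the lists are not reported here and were left out of the counts and medians of their lists. Named genes are the 7 members and, of each other list, up to 4 with the highest and 2 with the lowest mean TPM, and others are named where a result turns on them. For each member, transcripts with at least 5% of TPM in either library are named. Rows matching no annotated gene, 0.350% and 0.0785% of counts in replicates 1 and 2, were left out.

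Ratios used TPM + 1 and a minimum of 10 counts per library. Counts were rounded for TMM factors (edgeR 4.0.16) and size factors (DESeq2 1.42.0). Tables were handled with Python 3.11.15 and pandas 2.3.3. The ratio step was checked on simulated counts in CPM, with changes planted only in genes of high count and equally often up and down. That check does not cover TPM or genes near the minimum of 10 counts. The limit behind a count of 0 is 0.222 CPM in replicate 1 and 0.167 CPM in replicate 2. Limits and Wilson intervals cover counting error only: without molecular identifiers, reads need not be independent molecules.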

Additional observations from a re-analysis of the deposited data

How the results depend on the processing

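Depth limits single transcripts more than genes: the gene lowest in TPM, Lss, rests on 331 and 261 counts and is divided among 8 transcripts. In replicate 1 Fdft1 had fewer counts, 313. All 7 genes were detected under a minimum of 0.1 TPM, in the alignment-free table and in each library alone, and 6 at a minimum of 5 TPM. Detection of Lss in the alignment-free table rested on 1.02 TPM in replicate 2, close to the limit of 1 TPM. In the alignment-free table at 5 TPM, chosen after seeing the data, 2 of the 7, Insig1 and Srebf2, passed in both libraries. Genes under 200 bases held 28.4% and 74.9% of TPM in that table, against 24.7% and 25.0% in the gene table. The median level of 3.50 became 3.38 with a pseudocount of 0.1, 5.21 in CPM, 3.99 with TPM rescaled without mitochondrial genes and genes under 200 bases, 4.07 as a mean and 2.35 in the alignment-free table. It was 3.42 when the alignment-free TPM was rescaled likewise, a step chosen after seeing the data, and 3.27 to 3.74 in single libraries. No member passed 2-fold between the libraries except 1, Hmgcs1, in the alignment-free table as deposited. The median ratio of 0.10 was 0.53 without subtraction of the median of all genes, 0.0061 with a pseudocount of 0.1, 0.28 without a filter, 0.40 in the alignment-free table and 0.0085 after its rescaling, and it was 0.063 with a minimum of 50 counts, 0.068 with TMM and 0.048 with DESeq2 size factors. The cause of these differences was not tested. The noncoding share of 16.9% was 32.2% of TPM, 11.8% as a median over genes, 20.8% in the alignment-free table and 16.4% to 17.4% in single libraries. The span and overlaps of the genes in the alignment-free table were also computed after seeing the data. CPM values of all 7 genes were numerically higher than TPM, and in the alignment-free table all 7 were lower. Leading transcripts by TPM were the same for 6 of 7 genes in the alignment-free table. No paired analysis was possible because both libraries belong to 1 group.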
